A study of Mus musculus with 6 samples.

Results

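The VEGF ligands and receptors were followed in bulk RNA-Seq of the embryonic mouse cortex. The family was taken as a fixed list of 9 genes, the 4 ligands Vegfa, Vegfb, Vegfc and Pgf, the 3 receptor tyrosine kinases Flt1, Kdr and Flt4, and the 2 neuropilin co-receptors Nrp1 and Nrp2. The list was chosen with earlier results of these data known. Each gene was looked up by symbol and identifier, and all 9 were among the 17068 genes of the count table. The 6 libraries were made from lateral cortex of female c57/bl6 embryos, dissected at embryonic day 12.5, and the labels do not state that each is a separate embryo. The 4 controls carried no Cre, and by their labels controls 1, 2 and 4 were Foxp1 fl/+ and control 3 was Foxp1 fl/fl. The 2 libraries labelled Foxp1cKO were Foxp1 fl/fl;Emx1Cre. Emx1-driven Cre acts in progenitors of the dorsal telencephalon and in the cells they give rise to, a lineage that does not include the endothelium of cortical vessels. Every library thus carried at least one floxed Foxp1 allele, and the labels do not give the litter.

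VEGF proteins are secreted factors that direct the growth of blood vessels. VEGF-A, which neural progenitors release into the cortical wall, binds VEGFR2 (encoded by Kdr), the main signalling receptor of endothelial cells. It binds VEGFR1 (encoded by Flt1) more tightly. VEGFR1 has a weak kinase and, as a soluble splice form, takes up ligand and holds back VEGFR2 signalling. VEGF-B and PlGF (encoded by Pgf) bind VEGFR1 alone of these kinases, VEGF-C acts through VEGFR3 (encoded by Flt4), and the neuropilins present VEGF to the kinases and also serve as semaphorin receptors in axons. Transcription of Vegfa and Flt1 is known to rise in low oxygen through hypoxia-inducible factors.

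Counts were scaled by library size with TMM factors (CPM, the usual unit of library-scaled counts), and Foxp1cKO was set against control by edgeR's quasi-likelihood test over the whole table, with Benjamini-Hochberg adjustment and a threshold of 0.05. Each library held 50076008 to 78346979 counts on genes, and 3 counts, taken as a detection floor, equalled 0.0383 to 0.0599 CPM. The lowest count of any of the 9 genes was 234, so that none was near this floor. Foxp1 itself had 59.7, 60.8, 71.2 and 79.1 CPM in controls 1 to 4 and 83.2 and 76.8 CPM in the Foxp1cKO libraries 1 and 2, a log2 fold change of 0.24 (SE 0.129, edgeR adjusted p = 0.468). The targeted gene was therefore not lower by its gene-level count, which does not set apart the floxed exons, and groups are named by their labels throughout. Every direction below rests on those labels. Among cell type markers that go with dissection, control 3 had 13.2 CPM of Nkx2-1, a ventral telencephalic factor, against 0.216 to 1.07 CPM elsewhere, and the summed red cell markers were 3543.7 CPM in control 4 against 1099.5 to 1451.2 CPM in the other controls. Values of the family with and without these libraries are given where a call depends on them.

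Of the 9 genes, Vegfa and Flt1 were higher in the libraries labelled Foxp1cKO and passed the threshold, and none was lower. Of the 17068 genes tested, 26 passed (0.152%), and all 26 were higher. An unadjusted p under 0.05 was reached by 4 of the 9 genes (Vegfa, Vegfb, Flt1 and Nrp2) and by 13.0% of all genes. In the same 4 genes both Foxp1cKO libraries lay above every control, which was the case for 11.5% of all genes. With DESeq2, which called 3.36% of the 15067 genes it gave an adjusted p, Vegfa and Flt1 were again the members called. The median log2 fold change was 0.18 over the family and -0.0044 over all genes tested.

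The 250 bases upstream of the transcription start are printed for the genes that moved, Vegfa and Flt1, and for Kdr, the endothelial receptor beside Flt1 that did not pass the test. They come from RefSeq on GRCm38.p6, lie on the minus strand and read 5′ to 3′ toward the gene, at chr17:46032378-46032627 for Vegfa, chr5:147726012-147726261 for Flt1 and chr5:75978456-75978705 for Kdr. Capitals mark GCGTG, or its reverse complement CACGC where the match is on the opposite strand.
Vegfa: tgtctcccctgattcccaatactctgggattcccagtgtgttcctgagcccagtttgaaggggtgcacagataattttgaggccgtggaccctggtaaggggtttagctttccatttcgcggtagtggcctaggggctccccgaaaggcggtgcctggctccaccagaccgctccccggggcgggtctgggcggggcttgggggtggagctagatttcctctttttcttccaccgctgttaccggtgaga
Flt1: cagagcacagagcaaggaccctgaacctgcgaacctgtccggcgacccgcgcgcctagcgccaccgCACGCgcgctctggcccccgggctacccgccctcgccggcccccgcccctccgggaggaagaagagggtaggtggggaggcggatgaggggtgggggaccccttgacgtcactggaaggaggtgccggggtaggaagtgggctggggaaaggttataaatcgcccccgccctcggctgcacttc
Kdr: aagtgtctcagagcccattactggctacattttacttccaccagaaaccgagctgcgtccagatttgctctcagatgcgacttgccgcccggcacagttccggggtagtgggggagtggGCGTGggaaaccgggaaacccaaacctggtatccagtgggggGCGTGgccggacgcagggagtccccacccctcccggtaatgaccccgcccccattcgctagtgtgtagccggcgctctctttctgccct
The letters ACGTG and GCGTG, core sequences that hypoxia-inducible factors can bind, were searched on both strands in windows from 250 bases before to 50 bases after each start. All 9 members had a window, and where a gene had more than one, as Vegfa did with a further window at an internal start, the one nearest the GENCODE start was used. ACGTG was in none of the 9, against 19.6% of the 32851 windows in the RefSeq table. GCGTG was in 6 of the 9, against 32.4% of all windows. The 9 windows were 60.7 to 75.3% G and C, against a median of 52.7% over all windows. The shares were not matched for this, so they do not show that the family holds more GCGTG than like windows. Flt1 held 1 match on the opposite strand, beginning 184 bases before the start, and Kdr held 2 on its own strand, 131 and 89 bases before it. The window of Vegfa held neither sequence, nor did those of Vegfc and Flt4, while Vegfb, Pgf, Nrp1 and Nrp2 held GCGTG. A match is a description of letters in a short window, and elements farther away were not searched. The RefSeq and GENCODE starts lay 8 bases apart for Vegfa, 3 for Kdr, 32 for Nrp2 and 0 for Flt1 and Vegfb. They lay 477 bases apart for Pgf, 469 for Nrp1, 416 for Flt4 and 74 for Vegfc, whose windows did not reach the GENCODE start. No other gene of the count table overlapped any of the 9.

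Vegfa (ENSMUSG00000023951.17, chromosome 17, 46016993 to 46032369 on GRCm38, minus strand) encodes the principal angiogenic ligand. It had 71.0, 64.9, 71.7 and 71.3 CPM in controls 1 to 4, and 231 and 267 CPM in Foxp1cKO libraries 1 and 2. The controls were close to each other and both Foxp1cKO libraries lay far above them. Vegfa thus rose from 69.7 ± 3.24 CPM (SD, n = 4) to 249 ± 25.4 CPM (SD, n = 2), a fold of 3.57. The log2 fold change was 1.84 (SE 0.084, 95% interval 1.64 to 2.04, edgeR adjusted p = 0.00165). Vegfa had the smallest p-value of all 17068 genes in edgeR, although 17 of the other genes called had a larger log2 fold change. Its call was kept without any 1 of the 6 libraries, with log2 fold changes of 1.71 to 1.94 and edgeR adjusted p-values of 0.0021 to 0.0291. GENCODE lists 8 protein-coding transcripts of Vegfa, which differ in their binding to heparan sulfate, and a count over the gene does not separate them.

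The other ligands did not pass the test. Vegfb, a ligand of VEGFR1 with little angiogenic activity of its own, had 25.9, 26.8, 23.3 and 29.4 CPM in the controls and 30.5 and 34.5 CPM in the Foxp1cKO libraries. The groups did not overlap, but the gap between control 4 and Foxp1cKO 1 was narrow, and the log2 fold change was 0.30 (SE 0.114, 95% interval 0.03 to 0.57, edgeR adjusted p = 0.35). Vegfc, the lymphatic and venous growth factor, had 11.2, 6.66, 4.31 and 19.5 CPM in the controls and 12.2 and 10.4 CPM in the Foxp1cKO libraries. Both Foxp1cKO values fell inside the wide control range, and the 95% interval of the log2 fold change reached from -1.16 to 1.39 around 0.12 (SE 0.54, edgeR adjusted p = 0.948). Pgf, which encodes placental growth factor, had 4.78, 3.93, 5.87 and 3.58 CPM in the controls and 4.69 and 3.08 CPM in the Foxp1cKO libraries. These groups overlapped as well, with a log2 fold change of -0.23 (SE 0.277, 95% interval -0.88 to 0.43, edgeR adjusted p = 0.761). The remaining mammalian ligand, Vegfd, was not among the 9 and had 1.43 to 2.03 CPM in the controls and 1.19 and 1.24 CPM in the Foxp1cKO libraries (log2 fold change -0.42, SE 0.24, edgeR adjusted p = 0.493).

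Of the receptor kinases, Flt1 rose whereas Kdr and Flt4 did not pass the test. Flt1 (ENSMUSG00000029648.13, chromosome 5, 147561604 to 147726011, minus strand) had 18.1, 15.4, 12.5 and 17.4 CPM in controls 1 to 4, and 44.6 and 54.2 CPM in Foxp1cKO libraries 1 and 2. No control came near the Foxp1cKO values. The means were 15.9 ± 2.5 CPM (SD, n = 4) and 49.4 ± 6.78 CPM (SD, n = 2), a fold of 3.11, and the log2 fold change was 1.64 (SE 0.159, 95% interval 1.26 to 2.01, edgeR adjusted p = 0.0179). Flt1 ranked 16 of all genes by p-value. Its size was steadier than its call, since leaving out 1 library gave log2 fold changes of 1.47 to 1.77, but the edgeR adjusted p was 0.0706 without control 1, 0.101 without control 2, 0.082 without Foxp1cKO 1 and 0.192 without Foxp1cKO 2. The count does not separate the membrane form of VEGFR1 from the soluble form.

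Kdr (ENSMUSG00000062960.10, chromosome 5, 75932827 to 75978458, minus strand) had 69.5, 47.7, 45.2 and 49.3 CPM in the controls and 57.3 and 62.9 CPM in the Foxp1cKO libraries. Control 1 was the highest of all 6, and the other controls were lower than both Foxp1cKO libraries. The log2 fold change of Kdr was 0.18 (SE 0.177, 95% interval -0.23 to 0.60, edgeR adjusted p = 0.69), an interval that stops below that of Flt1. Flt4, which marks sprouting and lymphatic endothelium, had 8.36, 5.26, 5.02 and 5.19 CPM in the controls and 5.72 and 6.16 CPM in the Foxp1cKO libraries. Here too control 1 was the highest, and the log2 fold change was -0.0039 (SE 0.248, 95% interval -0.59 to 0.58, edgeR adjusted p = 0.996). In bulk tissue, fewer cells of a type and less RNA per cell cannot be told apart, nor can more cells and more RNA, which holds for each of these receptors.

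The neuropilins did not pass the test, and their fold changes had opposite signs. Nrp1, a co-receptor of VEGFR2 that is also abundant in axons, had 78.3, 62.3, 63.0 and 54.5 CPM in the controls and 53.6 and 56.6 CPM in the Foxp1cKO libraries. The Foxp1cKO values lay at the low end of the controls and overlapped them, with a log2 fold change of -0.23 (SE 0.142, 95% interval -0.56 to 0.11, edgeR adjusted p = 0.532). Nrp2, which pairs with VEGFR3 in vessels and with class 3 semaphorins in neurons, had 92.5, 133, 117 and 110 CPM in the controls and 163 and 146 CPM in the Foxp1cKO libraries. Both Foxp1cKO libraries were above all controls, with a log2 fold change of 0.45 (SE 0.14, 95% interval 0.12 to 0.78, edgeR adjusted p = 0.292).

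**Figure D1:**
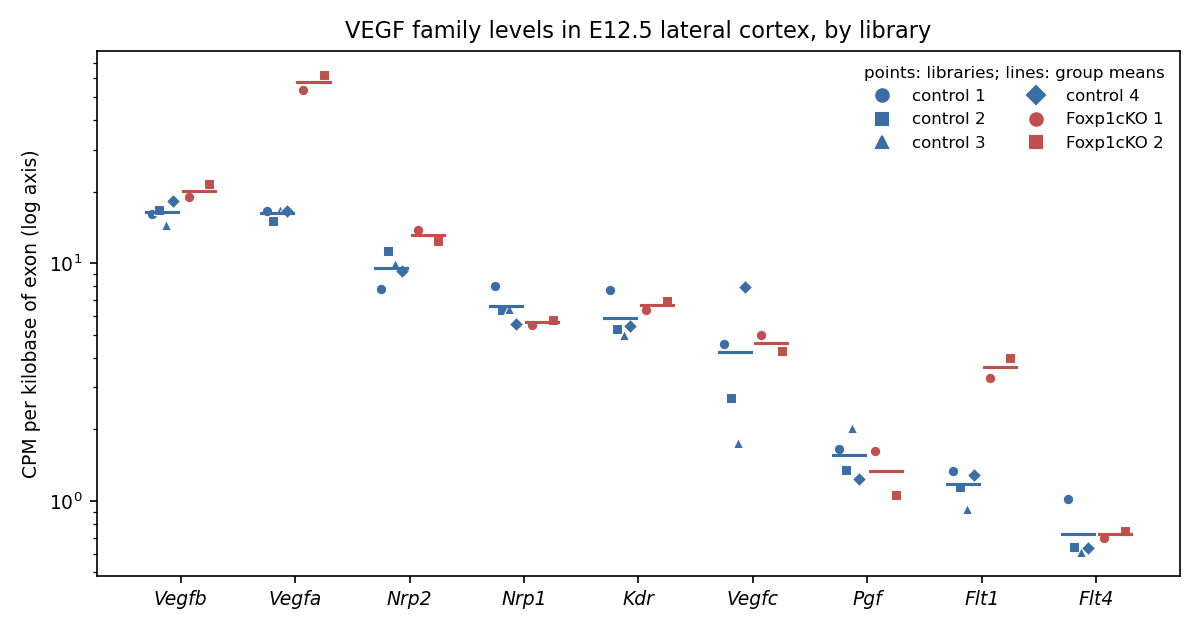
Level of each of the 9 genes in CPM per kilobase of exon, on a log axis, in the 4 controls (blue) and the 2 Foxp1cKO libraries (red). Points are libraries and lines are group means. Vegfa and Flt1 show the widest gaps between the groups, Vegfa from 15.1 to 16.7 in the controls to 53.9 and 62.3, and Flt1 from 0.928 to 1.34 in the controls to 3.3 and 4.01.

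To set the genes against each other, CPM was divided by the length in kilobases of all annotated exons of the gene, with overlaps counted once. The transcripts present can be shorter than this, so levels between genes are approximate. In the controls Vegfb (16.4 ± 1.56 CPM per kilobase, SD, n = 4) and Vegfa (16.3 ± 0.756) had the highest levels, and their ranges overlapped. Nrp2 (9.57 ± 1.43), Nrp1 (6.59 ± 1.02), Kdr (5.86 ± 1.24) and Vegfc (4.25 ± 2.74) followed. Pgf (1.56 ± 0.352), Flt1 (1.18 ± 0.185) and Flt4 (0.724 ± 0.195) had the lowest levels. Each gene's control range overlapped that of the next in this order, with the exception of Vegfa and Nrp2, which lay apart. Among the Foxp1cKO libraries Vegfa stood alone at the top with 58.1 ± 5.93 CPM per kilobase (SD, n = 2), followed by Vegfb with 20.2 ± 1.78. Kdr, with 6.66 ± 0.441 CPM per kilobase, came before Nrp1 with 5.63 ± 0.219, and Flt1, with 3.66 ± 0.502, came before Pgf with 1.34 ± 0.391. With 2 libraries a group, ranges that do not overlap say little of the order.

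Ratios within a library do not depend on how libraries are scaled, and were taken as log2 of CPM per kilobase. With 4 libraries against 2, an exact permutation test has 15 arrangements and cannot give a two-sided p under 0.133, so the ratios were described without a test. The ratio of Flt1 to Kdr, the decoy receptor over the signalling receptor, was -2.52, -2.21, -2.43 and -2.08 in controls 1 to 4 and -0.94 and -0.80 in the Foxp1cKO libraries. The CPM per kilobase of Flt1 was thus 0.174 to 0.236 of that of Kdr in the controls and 0.52 and 0.575 in the Foxp1cKO libraries, with no overlap. Being taken over all annotated exons, these values are not shares of transcripts. The ratio of Vegfa to Vegfb was 0.04, -0.14, 0.20 and -0.14 in the controls and 1.51 and 1.54 in the Foxp1cKO libraries. The ligands were near parity in each control, and Vegfa exceeded Vegfb 2.84-fold and 2.9-fold in the Foxp1cKO libraries. The ratio of Nrp1 to Nrp2 was 0.03, -0.82, -0.62 and -0.74 in the controls and -1.33 and -1.09 in the Foxp1cKO libraries. Both Foxp1cKO libraries were below every control in that ratio, and control 1 stood above the other controls.

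**Figure D2:**
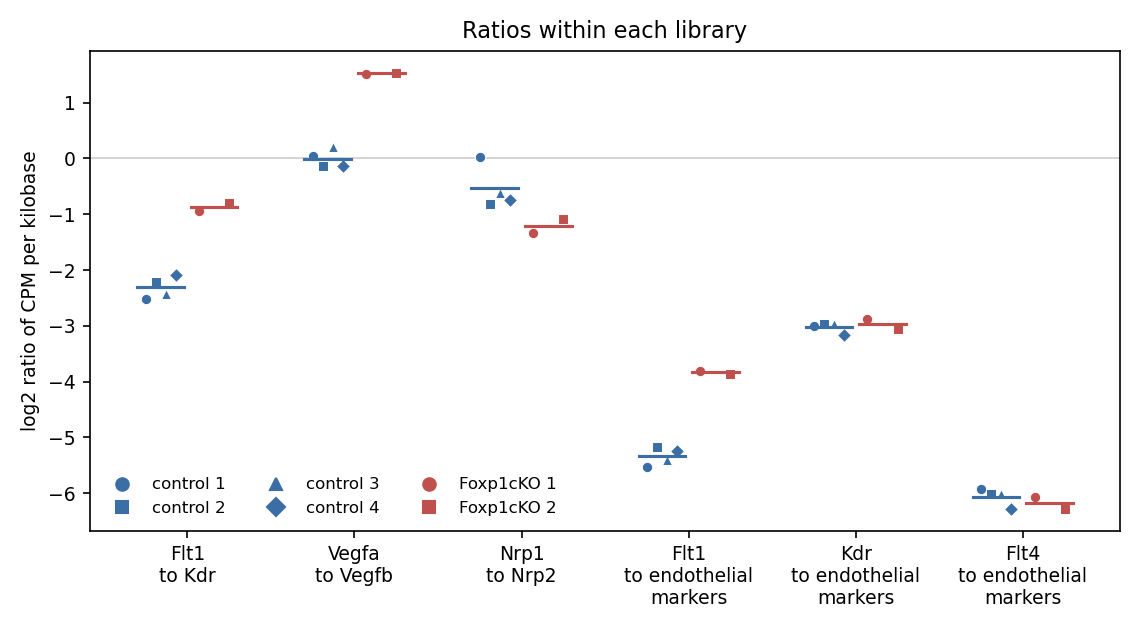
Log2 ratios of CPM per kilobase within each library, for 3 pairs of family members and for the 3 receptor kinases over the summed endothelial markers. Points are libraries (blue, controls, red, Foxp1cKO) and lines are group means. The Flt1 ratios and the Vegfa to Vegfb ratio are higher in both Foxp1cKO libraries than in any control, and the Kdr and Flt4 ratios to endothelial markers overlap.

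The receptors are made largely by endothelial cells, so the markers of that cell type were read beside them. The 16 endothelial markers, all in the table and none at 0 in any library, summed to 155 to 246 CPM in the controls and to 191 and 240 CPM in the Foxp1cKO libraries. None of the 16 passed the test in edgeR and their median log2 fold change was 0.084, with 0.24 without Foxp1cKO 1 and -0.11 without Foxp1cKO 2. Cdh5, the endothelial cadherin, had 38.8, 24.0, 21 and 33.9 CPM in the controls and 25.9 and 33.0 CPM in the Foxp1cKO libraries. Pecam1, an adhesion molecule of endothelial junctions, was the one marker above all controls in both Foxp1cKO libraries, with 21.4 to 30.4 CPM in the controls against 35.6 and 45.7 CPM (log2 fold change 0.65, SE 0.169, edgeR adjusted p = 0.251, DESeq2 adjusted p = 0.0281). The highest endothelial sum was that of control 1, which also had the highest Kdr and Flt4.

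Set against the endothelial sum, Flt1 differed from the other kinases. The log2 ratio of Flt1 to the endothelial markers, per kilobase, was -5.53, -5.18, -5.40 and -5.24 in the controls and -3.81 and -3.86 in the Foxp1cKO libraries. The mean difference of 1.5 was about as large as the change in Flt1 itself. The ratio of Kdr to the same markers was -3.00, -2.97, -2.97 and -3.16 in the controls and -2.87 and -3.06 in the Foxp1cKO libraries, a mean difference of 0.06. For Flt4 the difference was -0.12, with ranges that overlapped. Over all 6 libraries the Kdr ratio thus stayed between -3.16 and -2.87. With the median of the markers in place of their sum, the differences were 1.74 for Flt1, 0.30 for Kdr and 0.12 for Flt4.

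Markers of pericytes and red cells were read in the same way. The 9 pericyte markers in the table, of 10 listed, summed to 196 to 233 CPM in the controls and to 295 and 292 CPM in the Foxp1cKO libraries. Notch3 made up most of this sum, with 120 to 160 CPM in the controls and 177 and 167 CPM in the Foxp1cKO libraries. None of the 9 passed the test in edgeR, and their median log2 fold change was 0.48. Both Foxp1cKO libraries were above all controls in 6 of the 9, against 11.5% of all genes. DESeq2 called 2 of the 9, Rgs5 (adjusted p = 0.000697) and Ndufa4l2 (adjusted p = 3.44e-08). Des, which encodes desmin, had 0.096 to 0.791 CPM in the controls and 0.874 and 0.923 CPM in the Foxp1cKO libraries (log2 fold change 0.95, SE 0.681, edgeR adjusted p = 0.579). Ndufa4l2, a pericyte marker that is also a hypoxia target, had 0.974 to 1.68 CPM in the controls and 4.39 and 4.86 CPM in the Foxp1cKO libraries (log2 fold change 1.75, SE 0.242, edgeR adjusted p = 0.0747). The 9 red cell markers summed to 1451.2, 1099.5, 1149.7 and 3543.7 CPM in the controls and to 3848.7 and 4142.6 CPM in the Foxp1cKO libraries, with a median log2 fold change of 1.1. None was called by edgeR, and DESeq2 called 1, Hba-a1 (log2 fold change 1.12, DESeq2 adjusted p = 0.0305). Control 4, next to the Foxp1cKO libraries in this sum, had 71.3 CPM of Vegfa and 17.4 CPM of Flt1. The part of pericytes and red cells in the values of Vegfa and Flt1 was not tested.

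The remaining marker lists had no gene past the threshold in edgeR. The 10 microglial markers had a median log2 fold change of 0.34, but their sum of 58 to 72.1 CPM in the controls spanned the 61.9 and 60.3 CPM of the Foxp1cKO libraries. Markers of radial glia, the progenitors that Emx1-driven Cre targets, summed to 2185.2 to 2732.7 CPM in the controls and 2567.5 and 2481.2 CPM in the Foxp1cKO libraries, with a median of 0.13 over 9 genes. The medians were -0.21 for the 7 intermediate progenitor markers, -0.095 for the 11 cortical neuron markers, 0.19 for the 10 ventral telencephalic markers, -0.15 for the 8 meningeal markers and 0.067 for the 4 lymphatic markers. These medians turned on single libraries. With 1 library left out they reached from -0.42 (without Foxp1cKO 2) to -0.11 (without control 2) for intermediate progenitors and from -0.25 (without control 4) to -0.016 (without control 3) for cortical neurons. For the ventral markers they reached from -0.15 (without Foxp1cKO 1) to 0.68 (without control 3), for the meninges from -0.66 (without Foxp1cKO 2) to 0.26 (without Foxp1cKO 1), for the lymphatic markers from -0.3 (without Foxp1cKO 1) to 0.12 (without control 3), and for radial glia from 0.035 (without control 3) to 0.36 (without control 4). In each of these lists the summed level of at least 1 Foxp1cKO library lay inside the control range. The 4 lymphatic markers were Prox1, Lyve1, Pdpn and Reln. In control 2 they summed to 442 CPM, of which Reln had 393 CPM. This sum thus mostly reads Reln and is not a measure of lymphatic cells.

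**Figure D3:**
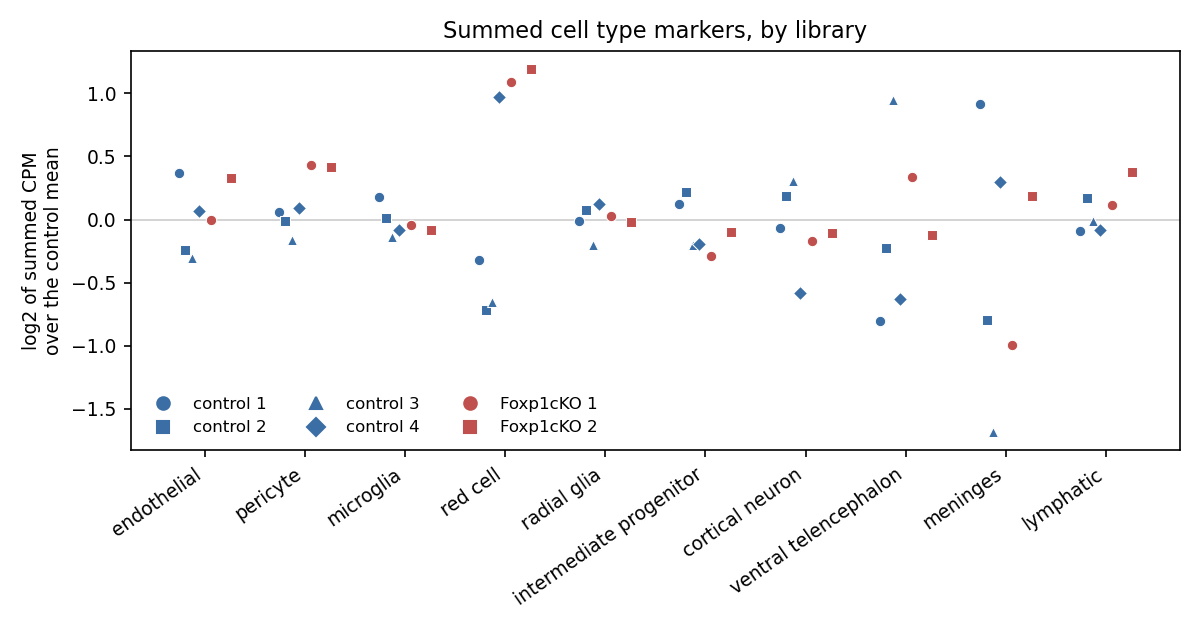
Summed CPM of each cell type marker list in each library, as log2 over the control mean. Points are libraries (blue, controls, red, Foxp1cKO). The pericyte and red cell sums are above all controls in both Foxp1cKO libraries, with control 4 next to them for red cells, and the endothelial sums overlap. The pericyte sum is mostly Notch3 and the lymphatic sum mostly Reln.

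Genes that endothelial cells are known to raise under VEGF or at the tip of a sprout were read next. All 16 on this list were in the table, 4 rose and none fell by the edgeR test, against 0.152% of all genes called, and the median log2 fold change was 0.55 against -0.0044 over all genes. The list was written with earlier results of these data known, among them the large changes of Esm1, Angpt2 and Kcne3, so its count is a description. Esm1, which encodes the tip cell proteoglycan endocan, had 1.63, 0.917, 0.919 and 1.69 CPM in the controls and 12.8 and 10.9 CPM in the Foxp1cKO libraries (log2 fold change 3.20, SE 0.30, edgeR adjusted p = 0.0175). Angpt2, the angiopoietin released at sites of vessel remodelling, had 1.63, 1.35, 1.95 and 2.44 CPM in the controls and 14.3 and 10.7 CPM in the Foxp1cKO libraries (log2 fold change 2.76, SE 0.255, edgeR adjusted p = 0.0171). Both genes were low in every control and high in both Foxp1cKO libraries.

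Kcne3, a potassium channel subunit found in tip cells, had 0.917 to 1.21 CPM in the controls and 7.59 and 6.62 CPM in the Foxp1cKO libraries (log2 fold change 2.75, SE 0.189, edgeR adjusted p = 0.00902). Igfbp3, a secreted binder of insulin-like growth factors, had 9.45 to 14.2 CPM in the controls and 43.7 and 40.4 CPM in the Foxp1cKO libraries (log2 fold change 1.84, SE 0.159, edgeR adjusted p = 0.013). The groups did not overlap in either. Of the other 12 genes, Dll4, Apln, Plaur and Unc5b had higher levels in both Foxp1cKO libraries than in any control and passed in DESeq2 but not in edgeR, with log2 fold changes of 0.57, 0.96, 1.34 and 0.38. Cxcr4 (0.094), Nid2 (0.28) and Pdgfb (0.30) had overlapping groups, and Rcan1, a feedback target of VEGF and calcineurin, had a log2 fold change of -0.078 (SE 0.105, edgeR adjusted p = 0.788). The number called was 2 without control 1, 0 without control 2, 0 without Foxp1cKO 1 and 0 without Foxp1cKO 2, and 4 without control 3 or control 4. With 1 library left out, the log2 fold changes of the 4 genes were between 1.74 for Igfbp3 and 3.36 for Esm1. Limma on the deposited log2-like values called all 4 with smaller differences, 1.92 for Esm1, 1.75 for Angpt2, 1.46 for Kcne3 and 1.61 for Igfbp3.

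**Figure D4:**
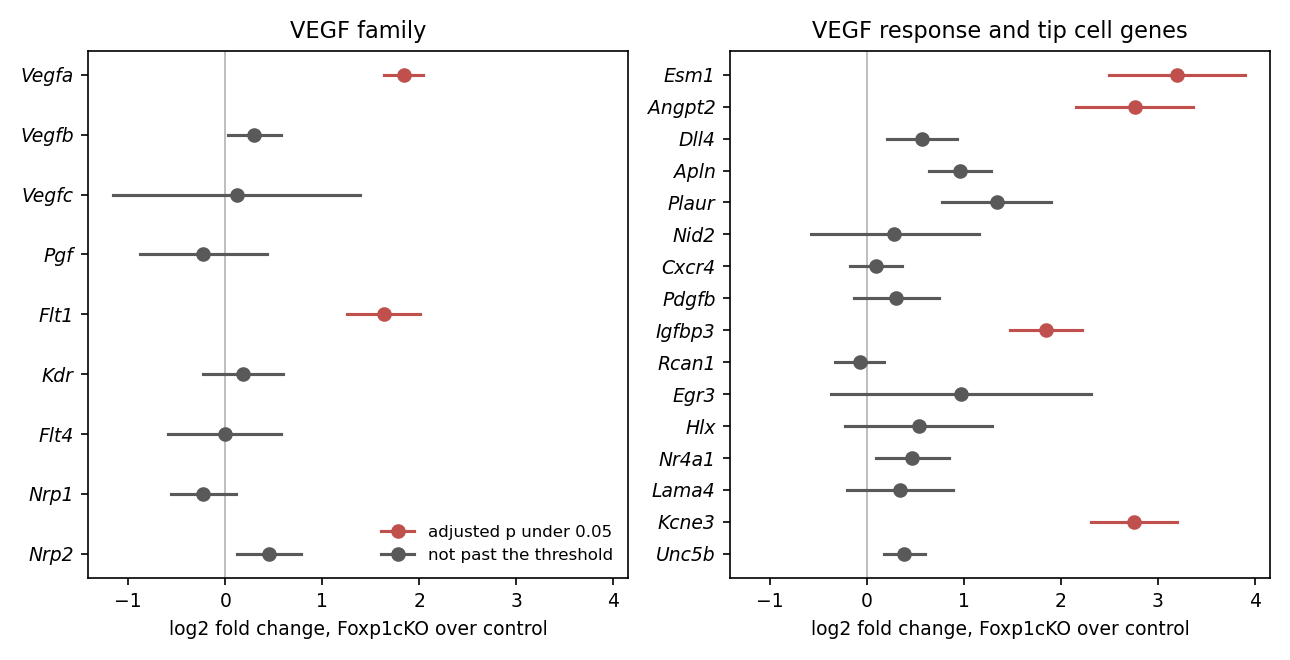
Log2 fold change of Foxp1cKO over control with its 95% interval, for the 9 VEGF family genes (left) and the 16 VEGF response and tip cell genes (right), from edgeR. Red marks an adjusted p under 0.05, reached by Vegfa and Flt1 on the left and by Esm1, Angpt2, Igfbp3 and Kcne3 on the right.

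The genes that carry or shape VEGF signals inside and outside the cell did not pass the test. Of the 37 genes of VEGF receptor signalling, from phospholipase C gamma to the MAP kinases, 36 were in the table, none was called in either direction by edgeR or DESeq2, and the median log2 fold change was -0.034. An unadjusted p under 0.05 was reached by 5 of the 36, against 13.0% of all genes. Among the 5 were Map2k1, with a log2 fold change of 0.46, and Akt1, with -0.26. The largest fold changes of this list were those of Hspb1, a small heat shock protein (0.71, SE 0.476, edgeR adjusted p = 0.554), and Sphk1, a sphingosine kinase (-0.71, SE 0.879, edgeR adjusted p = 0.766), both at under 1 CPM in each library.

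Of the 21 receptor partners and ligand-processing genes none was called by either tool, with a median of 0.023, and the number with an unadjusted p under 0.05 was 0 in edgeR. Emcn, an endothelial sialomucin that takes part in VEGFR2 uptake, had 3.77 to 8.97 CPM in the controls and 8.5 and 9.99 CPM in the Foxp1cKO libraries (log2 fold change 0.52, SE 0.334, edgeR adjusted p = 0.537). Ccbe1, a cofactor in the maturation of VEGF-C, had 1.05 to 3.68 CPM in the controls and 0.854 and 2.11 CPM in the Foxp1cKO libraries (log2 fold change -0.74, SE 0.553, edgeR adjusted p = 0.597). The class 3 semaphorins and plexins, the other partners of the neuropilins, numbered 12 with none called by either tool and a median of 0.0043. An unadjusted p under 0.05 was reached in edgeR by 2 of the 12, Sema3b and Sema3g, against 13.0% of all genes. Sema3b had 1.46 to 2.17 CPM in the controls and 2.76 and 3.18 CPM in the Foxp1cKO libraries (log2 fold change 0.85, SE 0.239, edgeR adjusted p = 0.278). Sema3e, the ligand of Plxnd1 on vessels, had 2.42 to 4.62 CPM in the controls and 4.85 and 6.25 CPM in the Foxp1cKO libraries (log2 fold change 0.64, SE 0.276, edgeR adjusted p = 0.388). Sema3g had 4.61 to 6.33 CPM in the controls and 7.31 and 8.15 CPM in the Foxp1cKO libraries (log2 fold change 0.47, SE 0.176, edgeR adjusted p = 0.345). Both Foxp1cKO libraries were above all controls in these 3 of the 12 genes, against 11.5% of all genes.

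Genes whose log2 CPM followed a family member most closely were looked for among 13855 genes with a mean of at least 1 CPM. The points are the same 6 libraries, so a difference between the groups enters each correlation, and values near 1 are found for every member. Vegfa was most like Matk (Pearson r 0.998), Ero1l (0.996) and A730081D07Rik (0.996). Ero1l encodes an oxidase that forms disulfide bonds in the endoplasmic reticulum. Flt1 was most like B230307C23Rik (0.999), P4ha1 (0.993) and Ndufa4l2 (0.992). P4ha1 encodes a catalytic subunit of collagen prolyl hydroxylase. Kdr was most like Esyt1 (0.995), Lama4 (0.988) and Dok5 (0.987). Lama4 encodes a laminin chain of the endothelial basement membrane, and had a log2 fold change of 0.34 beside the 0.18 of Kdr. Nrp2 was most like Ndnf (0.994), a secreted factor of Cajal-Retzius cells, Tmem106c (0.991) and Prune2 (0.988), and Nrp1 was most like Gca (0.991), Ankrd27 (0.989) and Ccdc136 (0.985).

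**Figure D5:**
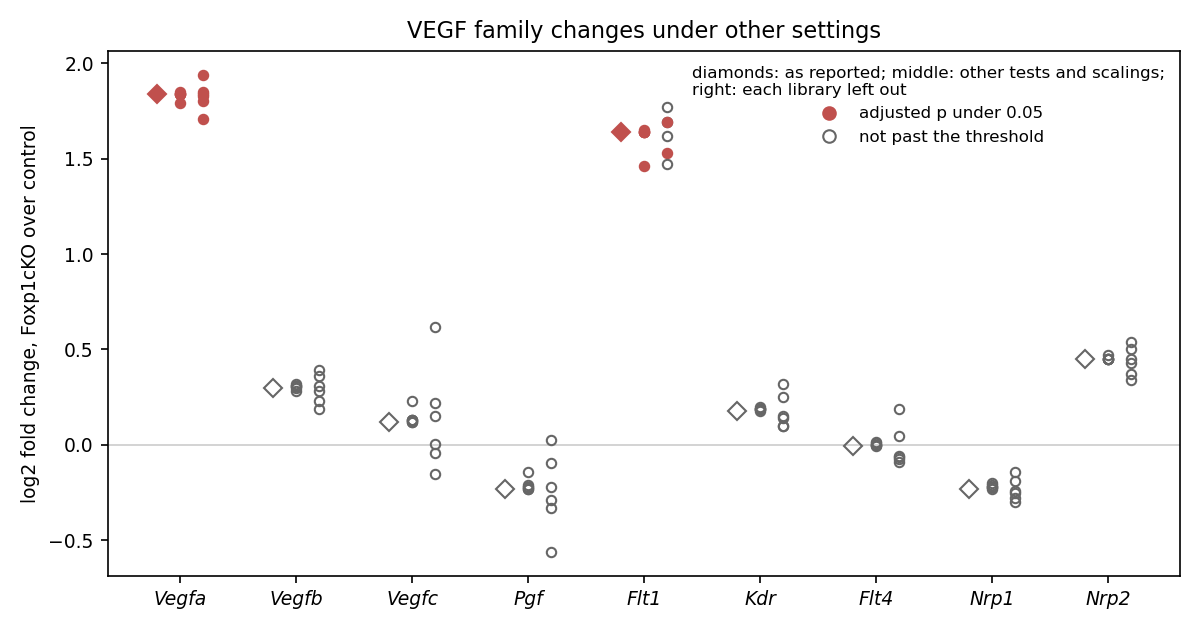
Log2 fold change of each family member as reported (diamonds), under other tests, scalings and a filter (middle points) and with each library left out (right points). Filled red points have an adjusted p under 0.05. The replicate block, under which neither Vegfa nor Flt1 passed, is not drawn. Vegfa stays between 1.71 and 1.94 with every library left out and is filled at every setting shown. Flt1 is filled in part, and the other 7 genes are open at every setting shown.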

How the data were processed

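Bulk RNA-Seq of 6 libraries, 4 control and 2 labelled Foxp1cKO, was analysed from the deposited tables. The authors made stranded paired-end libraries, aligned reads with STAR (mm10) and assigned them to genes by HTSeq 0.9.1 in union mode, and removed genes with few counts. They deposited whole, unnormalized counts of 17068 genes and, from DESeq2 1.30.1, variance-stabilized values on a log2-like scale, used here in 1 alternative only. The litter held in the authors' model was not used here.

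Counts were tested in R 4.3.3 with edgeR 4.0.16 (quasi-likelihood, TMM, group alone, all genes, Benjamini-Hochberg adjustment, threshold 0.05). The standard error is the log2 fold change over the square root of the F statistic. Alternatives were DESeq2 1.42.0, limma 3.58.1 with a trend on the deposited log2-like values, a robust edgeR fit, DESeq2 size factors, total counts, a filter of 1 CPM in 2 libraries, each library left out and a replicate block. The tests were tried on simulated data. Log2 CPM used a prior count of 2. Positions and exon lengths came from GENCODE M21, which holds 17047 of the 17068 identifiers and is another release than the authors' annotation. Promoter windows came from RefSeq on GRCm38.p6.

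The 9 members and the lists of pathway and marker genes were chosen with earlier results of these data known. Named in the text are the 9 members, Foxp1, the genes of each list past the threshold or with its largest changes, and for a member the 3 genes most correlated with it. Cdh5, Rgs5, Hba-a1, Vegfd, Map2k1, Akt1, Sema3g and the other tip cell genes were named after their values were seen. Some genes under these rules are not reported here.

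Per gene, the chi-square statistic between pairs of controls was 25.9 to 193, and it was 31.4 between the Foxp1cKO libraries, far above counting error. The detection floor covers counting error only, since reads copied by PCR are not independent molecules. The labels do not state that each library is a separate embryo, so p-values measure the spread between these libraries.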

Additional observations from a re-analysis of the deposited data

Results flagged for a closer look

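Of 60 values tested for a control far from the other 3, 9 had such a control by Dixon's test, which chance gives in about 1 of 20. Within the family these were Vegfa in control 2, low at 64.9 CPM beside 71.0 to 71.7 CPM, Kdr in control 1, high at 69.5 CPM beside 45.2 to 49.3 CPM, and Flt4 in control 1, high at 8.36 CPM beside 5.02 to 5.26 CPM. The summed red cell markers of control 4 were 3543.7 CPM beside 1099.5 to 1451.2 CPM, and in that library Hba-x had 559 CPM and Hbb-bh1 had 115 CPM. Control 3 had 2.17 CPM of Sema3b beside 1.46 to 1.49 CPM and 13.2 CPM of Nkx2-1 beside 0.216 to 0.595 CPM. Control 2 had 393 CPM of Reln beside 323 to 330 CPM.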

How the results depend on the processing

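Vegfa passed under DESeq2, limma, the robust fit, both other scalings, the filter and each library left out. With a replicate block it did not (log2 fold change 1.87, edgeR adjusted p = 0.0808), nor did Flt1 (1.56, edgeR adjusted p = 0.149), so that 0 members and 0 genes were called. Replicate numbers 1 and 2 are shared by both groups only as numbers, with correlations of the libraries' deviations of -0.198 and 0.0157, and the 2 pairs leave the block few degrees of freedom. The same fit had 0 tip cell genes past the threshold. DESeq2 called 507 genes, 310 of them higher, where edgeR called 26. Leaving out 1 library moved the genes called to between 2 (without control 2) and 96 (without control 4), with 6 without control 1, 9 without Foxp1cKO 1 and 3 without Foxp1cKO 2, and the members called to between 1 and 2. Where a Foxp1cKO library was left out, the other was assumed to vary like the controls. Flt4, at -0.0039, changed sign with DESeq2 (0.00011), limma (0.016), total counts (0.011) and the filter (0.0014), and lay between -0.092 and 0.19 with 1 library left out. Vegfc lay between -0.15 and 0.62 and Pgf between -0.56 and 0.028 over the same fits. With the median of the endothelial markers in place of their sum, the mean difference in log2 ratio was 1.74 for Flt1, 0.30 for Kdr and 0.12 for Flt4, and for Kdr it was -0.04 to 0.16 with 1 library left out. The endothelial markers themselves differed by 0.18 as the log2 of their sums and by 0.02 as the median of their log2 CPM, a setting added after the data were seen. Without division by length the order of control levels was another, with Nrp2 at rank 1, Nrp1 at 3, Kdr at 4, Vegfb at 5, Flt1 at 6, Vegfc at 7, Flt4 at 8 and Pgf at 9. The median of the neuropilin partners lay between -0.12 and 0.12, that of the receptor partners between -0.02 and 0.092, and that of the tip cell genes between 0.5 and 0.64 with 1 library left out and at 0.37 with limma. With 2 Foxp1cKO libraries, the intervals of Vegfc, Pgf, Kdr, Flt4 and Nrp1 leave room for changes in either direction.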
